A study of Homo sapiens with 6 samples.

Results

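The WNT genes followed were 9 symbols looked up in the deposited count table: the ligands WNT5A and WNT5B, the inhibitors DKK1, DKK3, SFRP1 and APCDD1, the intracellular regulators NKD2 (a Dishevelled-binding inhibitor) and AXIN2, and the transcription factor TCF7L2. Rows were found for 8 of the 9 among 21151 genes, and all 8 of these were among the 16353 genes tested. No row matched NKD2, which was not analysed here. The cells were human dermal fibroblasts of the established skin line CCD-1064Sk, sequenced as 3 libraries with a control short-hairpin RNA (shControl, genotype WT) and 3 with short-hairpin RNA against ZNF469, a zinc-finger gene (shZNF469, genotype ZNF469 knockdown). Both groups thus carried a hairpin, and the study asked how ZNF469 affects production of extracellular matrix. The replicates are described as technical, so p-values measure only the spread between these libraries. How many different hairpins were used, and whether each line was 1 clone, is not stated.

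WNT proteins are secreted, lipid-modified signals that bind Frizzled receptors. In the canonical branch they stop a scaffold of AXIN and APC from marking beta-catenin for destruction, and beta-catenin then activates target genes with TCF and LEF factors, whereas WNT5A and WNT5B are best known for branches that do not use beta-catenin and guide cell polarity and movement. Dermal fibroblasts both send and receive these signals, and they secrete antagonists that shape pigmentation, hair growth and scarring. Several inhibitors, among them AXIN2, APCDD1 and DKK1, are themselves induced by beta-catenin and close negative feedback loops.

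Total counts ran from 35417366 to 48298264 per library. ZNF469 had 39.7, 46.2 and 39.9 CPM (read counts brought to the same library size with the trimmed mean of M-values, TMM) in shControl and 21.4, 18.3 and 18.5 CPM in shZNF469, so the groups did not overlap and 46.2% of the control level remained (edgeR adjusted p = 0.000873). All 10 fibroblast markers had rows and together reached 31167 to 33579 TPM (the authors' length-scaled transcript abundance) in shControl and 24224 to 25660 TPM in shZNF469, with COL1A1, COL1A2 and COL3A1 lower and VIM higher by edgeR. Of the 7 melanocyte markers only PMEL and MITF had rows, summing to 38.0 to 42.4 TPM in shControl and 51.3 to 62.6 TPM in shZNF469, while MLANA, TYR and DCT had none. Among 7 keratinocyte markers only KRT10 had a row, at 24.4 to 28.3 and 18.5 to 18.8 TPM, and the 3 listed endothelial markers of 6 summed to at most 1.66 TPM. The 3 listed leukocyte markers of 6 came to 173 to 195 and 204 to 245 TPM, nearly all of it CD68, a lysosomal protein gene, with PTPRC and CD3E unlisted. The 5 listed pericyte and smooth muscle markers of 6 summed to 116 to 118 and 102 to 113 TPM. Cell cycle markers moved with the groups throughout: 10 of 10 were lower in shZNF469 (median log2 fold change -1.15), with sums of 291 to 309 against 152 to 156 TPM. The part of these differences in the WNT gene results was not tested.

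The secreted antagonists were the most abundant of the WNT members. On the length-scaled TPM, shControl fibroblasts had DKK3 at 683 ± 61.8 (SD, n = 3), DKK1 at 601 ± 27.3, SFRP1 at 312 ± 19.5, WNT5A at 163 ± 15.3, WNT5B at 111 ± 8.42, APCDD1 at 83.7 ± 2.81, TCF7L2 at 13.4 ± 1.98 and AXIN2 at 8.60 ± 0.268 TPM. No neighbours in that order overlapped in their libraries. In shZNF469 the order was the same except that APCDD1, at 124 ± 4.41 TPM, stood above WNT5B, at 113 ± 15.9 TPM, and the libraries of that pair overlapped. The 4 inhibitors summed to 1796, 1634 and 1609 TPM in the control libraries and 1668, 1700 and 1625 TPM in the knockdown libraries. The sum of WNT5A and WNT5B was 288, 284 and 250.2 TPM in shControl and 269, 269 and 243 TPM in shZNF469. The inhibitors thus exceeded the WNT5 ligands by a ratio of 6.14 ± 0.351 in shControl and 6.40 ± 0.249 in shZNF469, values that overlapped between groups. This ratio compares RNA levels only. The largest part of the inhibitor sum was DKK3, whose action on WNT signalling is less settled.

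**Figure D1:**
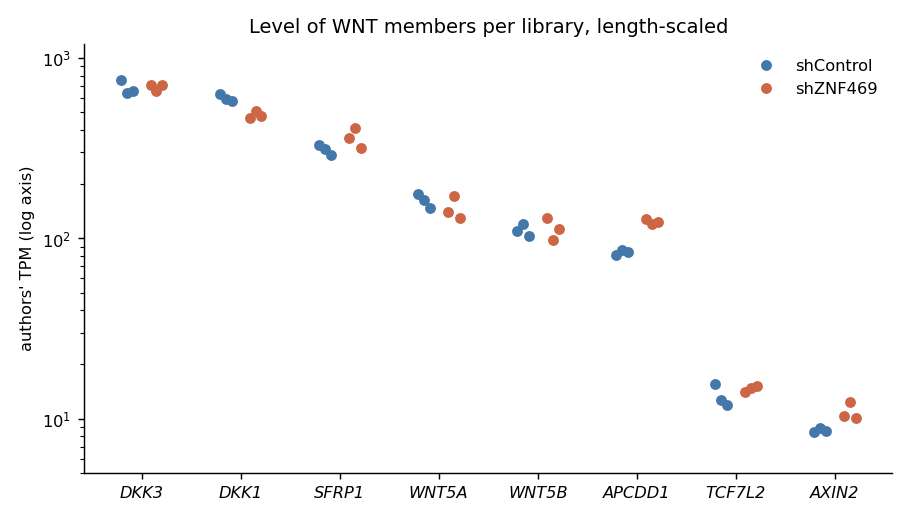
Level of each WNT member in the authors' TPM on a log axis, 1 point per library (blue shControl, orange shZNF469, 3 each). DKK3 and DKK1 lie highest and AXIN2 lowest in both groups, and APCDD1 moves from 83.7 to 124 TPM.

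Of the 8 members tested, 3 rose (APCDD1, AXIN2 and SFRP1) and 1 fell (DKK1) at an edgeR adjusted p under 0.05, and WNT5A, WNT5B, DKK3 and TCF7L2 did not pass. Over all tested genes 9.90% passed, 4.56% as higher and 5.34% as lower. With limma on the authors' TPM (pseudocount 1) 233 genes passed as higher and 526 as lower, against 745 and 874 by counts. The members were chosen with earlier results of these libraries known, so their share is a description and not a test of the set. Their median log2 fold change was 0.11, against 0.00 over all tested genes, for which the median size of change was 0.17. The 4 calls ranged in size from 1.17-fold to 1.50-fold. The CPM of the groups did not overlap for 5 of the 8 members, as for 31.4% of tested genes, and the authors' TPM did not overlap for 3 of the 8 (APCDD1, AXIN2 and DKK1), as for 24.8% of tested genes.

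**Figure D2:**
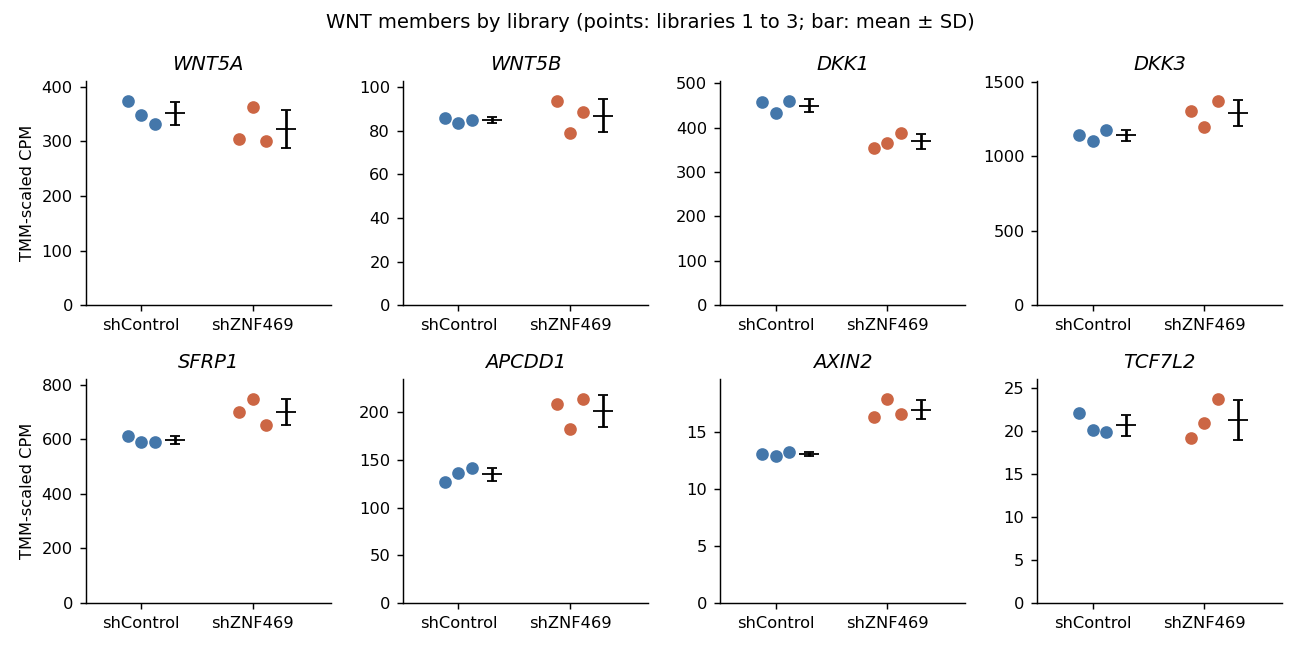
TMM-scaled CPM of each member by library, each panel with its own axis from 0; points are libraries and the bar is mean ± SD (n = 3). The groups are apart for DKK1, DKK3, SFRP1, APCDD1 and AXIN2 and overlap for WNT5A, WNT5B and TCF7L2.

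APCDD1, a membrane-bound inhibitor that binds WNT and its LRP co-receptor, had the largest change and the lowest p of the members. The gene (ENSG00000154856, protein coding) lies on chromosome 18 from 10454635 to 10489949 in the build GRCh38.p14, which all coordinates use. It had 127, 136 and 141 CPM in shControl and 209, 183 and 214 CPM in shZNF469. Every knockdown library was above every control, the lowest of them being shZNF469 replicate 2. It rose 1.50-fold (95% interval 1.32 to 1.69; log2 fold change 0.58, SE 0.08, edgeR adjusted p = 0.00483). The call held in 15 of 15 alternative settings, with adjusted p up to 0.0350, and the authors' TPM separated the groups as well, at 80.9, 86.5 and 83.6 against 129, 120 and 124 TPM.

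DKK1, a secreted antagonist that blocks the co-receptors LRP5 and LRP6, went the other way. The gene (ENSG00000107984, protein coding, chromosome 10, 52314281 to 52317657) had 457, 432 and 459 CPM in shControl and 354, 366 and 388 CPM in shZNF469. No knockdown library reached a control library. DKK1 fell to 82.1% of the control level (95% interval of the ratio 0.754 to 0.894; log2 fold change -0.28, SE 0.05, edgeR adjusted p = 0.0178). The authors' TPM did not overlap either, with means of 601 and 486 TPM. The edgeR call was lost without shControl replicate 1, 2 or 3 (adjusted p = 0.0972, 0.0539 and 0.0736) and without shZNF469 replicate 1 (adjusted p = 0.0763), while the log2 fold change stayed between -0.32 and -0.26 over the 15 alternatives.

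APCDD1 and DKK1 are both known as beta-catenin targets and moved in opposite directions, so their promoters are shown, as the 250 bases before the start site (RefSeq, GRCh38.p14, plus strand, 5′ to 3′). DKK1 lies at chr10:52314031-52314280 and APCDD1 at chr18:10454385-10454634. Capitals mark matches to the core of the TCF/LEF motif, searched on both strands as the letters CTTTG followed by 2 bases that are each A or T, with overlaps allowed.
DKK1: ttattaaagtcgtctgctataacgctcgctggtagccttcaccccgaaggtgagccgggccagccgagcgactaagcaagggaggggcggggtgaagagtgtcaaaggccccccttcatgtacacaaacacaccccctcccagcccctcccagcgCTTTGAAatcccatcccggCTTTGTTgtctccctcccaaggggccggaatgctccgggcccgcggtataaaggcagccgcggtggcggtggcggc
APCDD1: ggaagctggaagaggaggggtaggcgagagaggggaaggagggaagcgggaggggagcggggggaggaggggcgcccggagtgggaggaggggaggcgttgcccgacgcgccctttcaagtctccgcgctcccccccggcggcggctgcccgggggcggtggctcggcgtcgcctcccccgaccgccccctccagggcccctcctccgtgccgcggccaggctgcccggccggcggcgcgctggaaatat
The DKK1 window held 2 matches, whose first bases lay at -95 and -76 from the start site, and the APCDD1 window held none. The same search found a match in 12% of 35116 promoter windows of that length. Among the members, 10 windows were searched, from 6 members with NKD2 included. Of these windows 2 held a match, that of DKK1 and that of an internal start of TCF7L2. No window of SFRP1, AXIN2 or DKK3 was searched. G and C made up 62.8% of the DKK1 window and 77.2% of that of APCDD1. A match is only a run of letters and was not tested as a binding site. Sequence outside the 250 bases was not searched, so a window without a match does not show a gene without any. Whether the matches bear on the direction of change was not tested.

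SFRP1 encodes a secreted Frizzled-related protein that binds WNT ligands outside the cell. The gene (ENSG00000104332, protein coding, chromosome 8, 41261962 to 41309473) had 613, 590 and 589 CPM in shControl and 699, 747 and 652 CPM in shZNF469. The groups did not overlap in CPM, and SFRP1 rose 1.17-fold (95% interval 1.07 to 1.28; log2 fold change 0.23, SE 0.06, edgeR adjusted p = 0.0487). In the authors' TPM the groups did overlap, at 330.3, 315 and 292 against 361, 409 and 316 TPM. This call lay at the threshold and was lost in 10 of 15 alternative settings, with adjusted p up to 0.304, although the log2 fold change stayed at 0.18 to 0.28. It was lost without shControl replicate 1, 2 or 3 (adjusted p = 0.117, 0.148 and 0.159) and without shZNF469 replicate 1 or 2 (adjusted p = 0.149 and 0.0613).

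DKK3, the most abundant member, is a divergent relative of DKK1 whose action on WNT signalling is less settled. The gene (ENSG00000050165, protein coding, chromosome 11, 11963036 to 12009745) had 1141, 1099.9 and 1176 CPM in shControl and 1303, 1193 and 1368 CPM in shZNF469. Each knockdown library was above each control, yet the difference did not pass (1.13-fold, 95% interval 1.03 to 1.24; log2 fold change 0.18, edgeR adjusted p = 0.104). It passed in 4 of 15 alternative settings, among them DESeq2 (adjusted p = 0.0170) and the fit without shZNF469 replicate 2 (adjusted p = 0.0253), and the range over the alternatives was 0.0170 to 0.913.

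**Figure D3:**
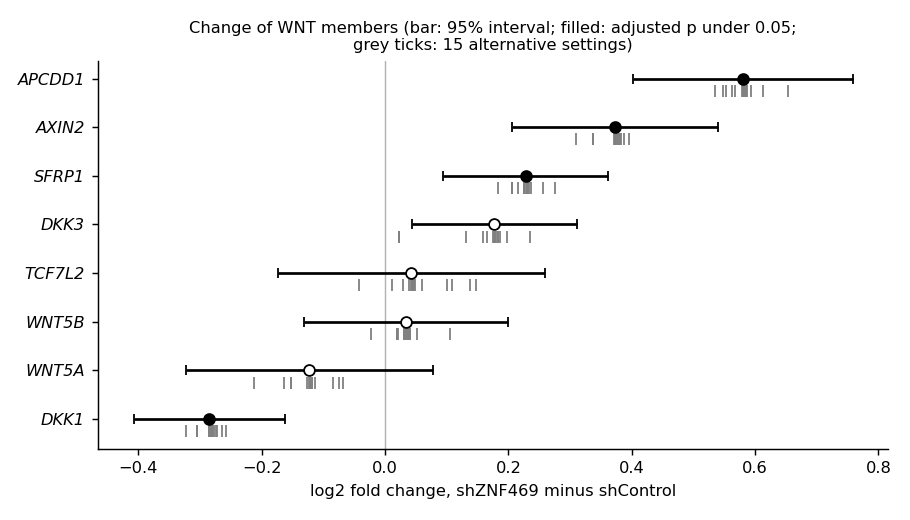
Log2 fold change of each member, shZNF469 minus shControl, with its 95% interval; filled points passed an adjusted p under 0.05 and grey ticks are the 15 alternative settings. APCDD1, at 0.58, is highest and DKK1, at -0.28, lowest, and the intervals of TCF7L2, WNT5B and WNT5A include 0.

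The WNT5 ligands did not pass. WNT5A (ENSG00000114251, protein coding, chromosome 3, 55465715 to 55505263) had 373, 348 and 332 CPM in shControl and 304, 363 and 300.1 CPM in shZNF469, with shZNF469 replicate 2 inside the control range. It stood at 91.8% of the control level, with a 95% interval of the ratio from 0.799 to 1.05 (edgeR adjusted p = 0.457). WNT5B (ENSG00000111186, protein coding, chromosome 12, 1617056 to 1647212), the close paralog of WNT5A, had 86.1, 83.6 and 85.2 CPM in shControl and 93.5, 79.0 and 88.5 CPM in shZNF469. The knockdown libraries lay on both sides of the controls and were more spread, at an SD of 7.38 against 1.23 CPM. WNT5B had a fold change of 1.02 (95% interval 0.913 to 1.15; edgeR adjusted p = 0.832). Changes in WNT5A or WNT5B beyond these intervals were not seen, and smaller ones could not be told from none.

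AXIN2, the scaffold protein of the destruction complex that is widely used as a readout of beta-catenin activity, was higher in the knockdown. The gene (ENSG00000168646, protein coding, chromosome 17, 65528563 to 65561648) was at a low level, with 465, 607 and 495 counts in shControl and 762, 885 and 672 counts in shZNF469. Scaled, this was 13.1, 12.9 and 13.2 CPM against 16.3, 17.9 and 16.5 CPM. The controls were nearly equal and every knockdown library exceeded them. AXIN2 rose 1.30-fold (95% interval 1.15 to 1.45; log2 fold change 0.37, SE 0.07, edgeR adjusted p = 0.0204). The call was lost in 8 of 15 alternative settings, with adjusted p up to 0.178, although the log2 fold change stayed at 0.31 to 0.40. It was lost without shControl replicate 1, 2 or 3 (adjusted p = 0.0806, 0.0714 and 0.0722) and without shZNF469 replicate 1 or 3 (adjusted p = 0.0635 and 0.0505).

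TCF7L2 encodes a DNA-binding partner of beta-catenin. It (ENSG00000148737, protein coding, chromosome 10, 112950247 to 113167678) had 22.1, 20.1 and 19.8 CPM in shControl and 19.2, 20.9 and 23.7 CPM in shZNF469. The knockdown range covered the control range, and the fold change was 1.03 (95% interval 0.886 to 1.20; edgeR adjusted p = 0.845).

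The counts and the authors' TPM placed the libraries differently for some members, and their ratio changed most between the groups for DKK3 and TCF7L2. SFRP1, too, was apart by CPM and overlapped by TPM. DKK3 stood at 114%, 105% and 120.0% of the control mean in the shZNF469 libraries by CPM, but at 104%, 96.4% and 104% by TPM, and shControl replicate 1 was at 100.2% by CPM and 110.4% by TPM. The counts per TPM of DKK3, relative to the median gene of each library, were 1.32, 1.51 and 1.46 in shControl and 1.56, 1.64 and 1.54 in shZNF469. That is a log2 change of 0.14, and 7.50% of tested genes had a larger one in either direction. TCF7L2 moved the opposite way, from 1.23, 1.40 and 1.36 to 1.16, 1.27 and 1.25 (log2 change -0.12, exceeded by 9.68% of tested genes). For APCDD1 and DKK1 the same measure changed by 0.00 and 0.01. Whether the mix of transcripts of DKK3 or TCF7L2 differed between libraries was not tested.

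**Figure D4:**
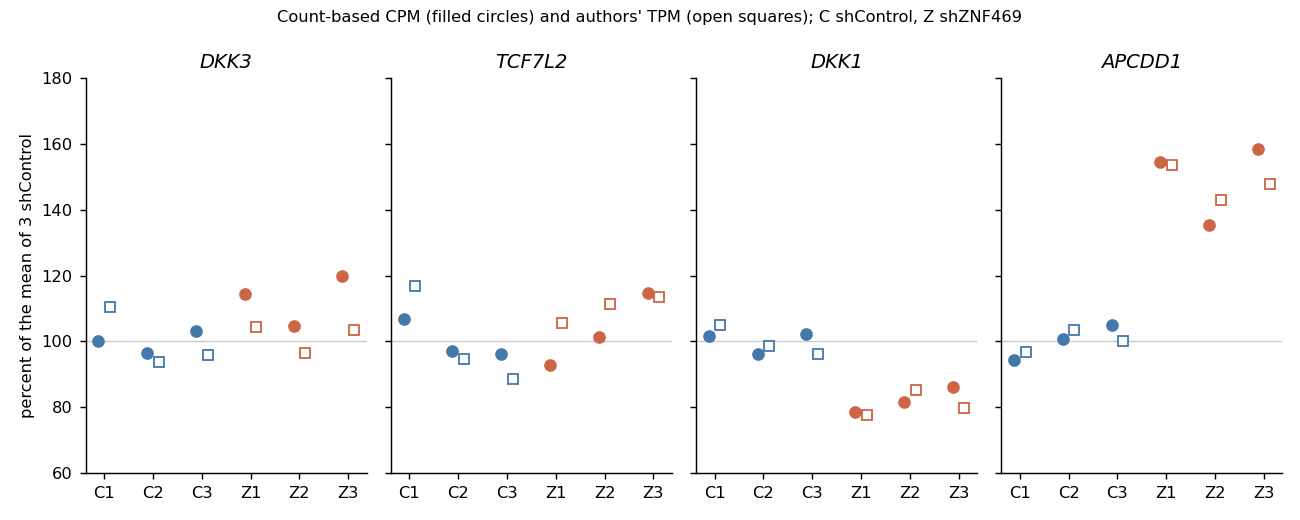
Each library as a percent of the mean of 3 shControl libraries, by TMM-scaled CPM (filled circles) and by the authors' TPM (open squares). For DKK3 the knockdown libraries reach 105% to 120.0% by CPM and 96.4% to 104% by TPM, whereas for APCDD1 and DKK1 both scales put every knockdown library on the same side of the controls.

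Another listed gene overlaps WNT5A, WNT5B, DKK1 and TCF7L2 on the opposite strand in GENCODE release 29, and no source used here gives the strand setting of the counting. WNT5A-AS1 had a mean of 209 counts, or 1.45% of WNT5A, and FBXL14 had 145 counts, or 3.95% of WNT5B. PRKG1-AS1 came to 0.365% of DKK1 and AL158212.2 to 0.0745% of TCF7L2. A shared read could thus be placed with either gene of a pair.

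The wider pathway was described with 10 lists of WNT genes, 160 genes in all, of which 127 had rows and 125 were tested. Among these, 12 were higher and 5 lower, or 13.6% called against 9.90% over all genes, and the median log2 fold change was 0.02. Without the members, 9 were higher and 4 lower of 117 tested, or 11.1%, near the share over all genes. The lists, too, were chosen with earlier results of these data known, so these shares are descriptions. The counts over all lists changed with single libraries, as did those over all genes. Fits were made without shControl replicate 1, 2 and 3 and shZNF469 replicate 1, 2 and 3 in turn. In that order 6, 7, 5, 5, 12 and 10 list genes were higher and 2, 2, 3, 2, 6 and 4 lower. Of all genes 215, 332, 267, 204, 769 and 496 were higher, against 745 with all libraries. Lower were 333, 397, 405, 388, 854 and 625, against 874.

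Among ligands, WNT2 alone passed. Of 19 WNT genes 8 had rows and 7 were tested, 1 being lower and 0 higher by edgeR. This was 14.3% called, against 9.90% over all tested genes. At an unadjusted p under 0.05 or by DESeq2, 0 were higher as well. DESeq2 called 3246 of all 16353 tested genes, and the share of all genes at an unadjusted p under 0.05 was not counted here. WNT2, which encodes a ligand of the canonical branch, had 35.2, 34.3 and 37.9 CPM in shControl and 24.4, 23.7 and 25.3 CPM in shZNF469. The groups were well apart, and it fell by 0.55 on the log2 scale (SE 0.06, edgeR adjusted p = 0.00286), a call kept in 15 of 15 alternative settings. On the TPM scale WNT2, at 25.3 TPM in shControl, came next among the ligands after WNT5A and WNT5B. Of the 3 tested genes for lipidation, secretion and cleavage of ligands 0 passed edgeR (3 at an unadjusted p under 0.05, and 1 by DESeq2), and their most abundant member, WLS, which carries ligands to the cell surface, was at 60.3 and 65.0 TPM (adjusted p = 0.146; 0.0354 with DESeq2).

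Receptors gave 1 lower and 0 higher of 14 tested by edgeR, or 7.14% called, against 9.90% over all tested genes. At an unadjusted p under 0.05, 3 were lower and 2 higher. By DESeq2, which called 3246 of all 16353 tested genes, 2 were lower and 2 higher. FZD4, a Frizzled receptor gene, fell from 67.4 ± 3.58 to 54.6 ± 3.24 CPM (SD, n = 3; edgeR adjusted p = 0.0330). PTK7, a co-receptor gene of the polarity branch and the most abundant of the list at 425 TPM in shControl, was at 481 TPM in shZNF469 (edgeR adjusted p = 0.0573; 0.0187 without shZNF469 replicate 2). For R-spondins, their receptors and E3 ligases, 1 of 5 tested was higher and 0 lower by edgeR, or 20% called. At an unadjusted p under 0.05, and also by DESeq2, 2 of that list were higher and 1 lower. The edgeR call was RSPO3, an amplifier of WNT signals, which rose from 9.38 ± 0.943 to 14.5 ± 0.551 CPM (edgeR adjusted p = 0.00966). RSPO4 was the most abundant of the list, at 16.9 and 17.9 TPM (adjusted p = 0.641).

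The list of secreted and membrane inhibitors, to which 4 members belong, had 4 higher and 1 lower of 9 tested (median log2 fold change 0.23). That was 55.6% called, against 9.90% over all tested genes. The calls include the members APCDD1, SFRP1 and DKK1. Members and lists were chosen with earlier results known, so the share is a description. Besides the members, KREMEN1 and IGFBP4 rose. KREMEN1, a receptor that takes up DKK1 and LRP6 together, had 33.0, 38.4 and 34.3 CPM in shControl and 59.3, 56.0 and 54.5 CPM in shZNF469. Each knockdown library was above each control, and it rose 1.61-fold (log2 fold change 0.68, SE 0.07, edgeR adjusted p = 0.00208). IGFBP4, an IGF-binding protein that also acts as a WNT antagonist, was the most abundant of the list and rose 1.29-fold, from 3146 ± 58.0 to 4071 ± 281 CPM (edgeR adjusted p = 0.00585). Both calls held in 15 of 15 alternative settings.

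Inside the cell, the lists of signalling components were called at shares near or below the 9.90% of all tested genes. Of 8 Dishevelled and partner genes 0 passed edgeR (2 at an unadjusted p under 0.05, and 1 by DESeq2), and the most abundant, CXXC5, was at 60.2 and 58.3 TPM. Of 18 genes for beta-catenin and its destruction complex, 1 was higher by edgeR (AXIN2) and 0 were lower (2 higher and 1 lower at an unadjusted p under 0.05, and the same counts by DESeq2), or 5.56% called. CTNNB1, which encodes beta-catenin, was at 259, 248 and 249 CPM in shControl and 258, 261 and 249 CPM in shZNF469 (edgeR adjusted p = 0.833). Among 21 TCF/LEF factors and cofactors 2 were higher and 0 lower by edgeR, or 9.52% called (5 higher and 1 lower at an unadjusted p under 0.05, and 5 and 0 by DESeq2). TCF7, another partner of beta-catenin and also a target gene, rose from 10.3 ± 1.04 to 14.1 ± 0.959 CPM (edgeR adjusted p = 0.0363), and EP300, a histone acetyltransferase gene, from 73.5 ± 1.38 to 86.3 ± 1.79 CPM (adjusted p = 0.0288). TLE5, the most abundant of the list, was at 497 and 485 TPM and did not pass (adjusted p = 0.729).

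Genes known as targets of beta-catenin did not move as one: 6 were higher and 3 lower of 22 tested by edgeR (9 higher and 6 lower by DESeq2). That was 40.9% called by edgeR, against 9.90% over all tested genes. The members and lists were chosen with earlier results of these data known, so this share is a description and not a test of the list. AXIN2, APCDD1 and DKK1 were among the calls, and the median log2 fold change of the list was -0.03. KREMEN1, APCDD1, TCF7 and AXIN2 were higher, as were CD44, a hyaluronan receptor gene (731 ± 25.5 to 910.4 ± 6.69 CPM), and SNAI2, a transcription factor gene of mesenchymal cells (93.8 ± 2.33 to 117 ± 5.71 CPM). DKK1 was lower, together with FOSL1, an AP-1 subunit gene (48.7 ± 2.77 to 31.7 ± 2.58 CPM, edgeR adjusted p = 0.00395), and CCN4, a matricellular protein gene (10.7 ± 0.594 to 7.26 ± 0.493 CPM, adjusted p = 0.0150). Of 26 genes of the polarity and calcium branch 2 were higher and 0 lower by edgeR. This was 7.69% called, below the 9.90% of all tested genes. At an unadjusted p under 0.05, and also by DESeq2, 4 were higher and 1 lower. The edgeR calls were the cadherin gene CELSR1 (21.2 ± 1.42 to 27.5 ± 2.12 CPM) and the transcription factor gene NFATC4 (179 ± 8.12 to 219.8 ± 7.96 CPM). RHOA, the most abundant gene of that branch, was at 782 and 754 TPM (adjusted p = 0.346).

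With 1 library left out, 8 pathway genes outside the members lost their call in at least 1 of the 6 fits. Those fits have fewer samples, and the log2 fold changes of the 8 genes kept their direction. Over all 15 alternatives these ran from 0.39 to 0.52 for TCF7, -0.35 to -0.26 for FZD4, 0.21 to 0.25 for EP300, 0.31 to 0.41 for CELSR1, 0.28 to 0.35 for SNAI2, -0.60 to -0.46 for CCN4, 0.26 to 0.34 for NFATC4 and 0.52 to 0.69 for RSPO3. TCF7 lost its call without any one of the 6 libraries (edgeR adjusted p = 0.0507 to 0.131). FZD4 lost it without shControl replicate 1, 2 or 3 or shZNF469 replicate 1 or 3 (adjusted p = 0.0551 to 0.136), and EP300 and CELSR1 without any control or shZNF469 replicate 1 (adjusted p = 0.0838 to 0.115 and 0.0826 to 0.107). SNAI2 lost it without any control (adjusted p = 0.0628 to 0.0797), CCN4 without shControl replicate 1 or 2 or shZNF469 replicate 1 (adjusted p = 0.0578 to 0.0702), NFATC4 without shControl replicate 1 or 3 or shZNF469 replicate 1 (adjusted p = 0.0831 to 0.0927) and RSPO3 without shZNF469 replicate 1 (adjusted p = 0.0524). CD44, WNT2, FOSL1, KREMEN1 and IGFBP4 kept their calls without any 1 library.

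**Figure D5:**
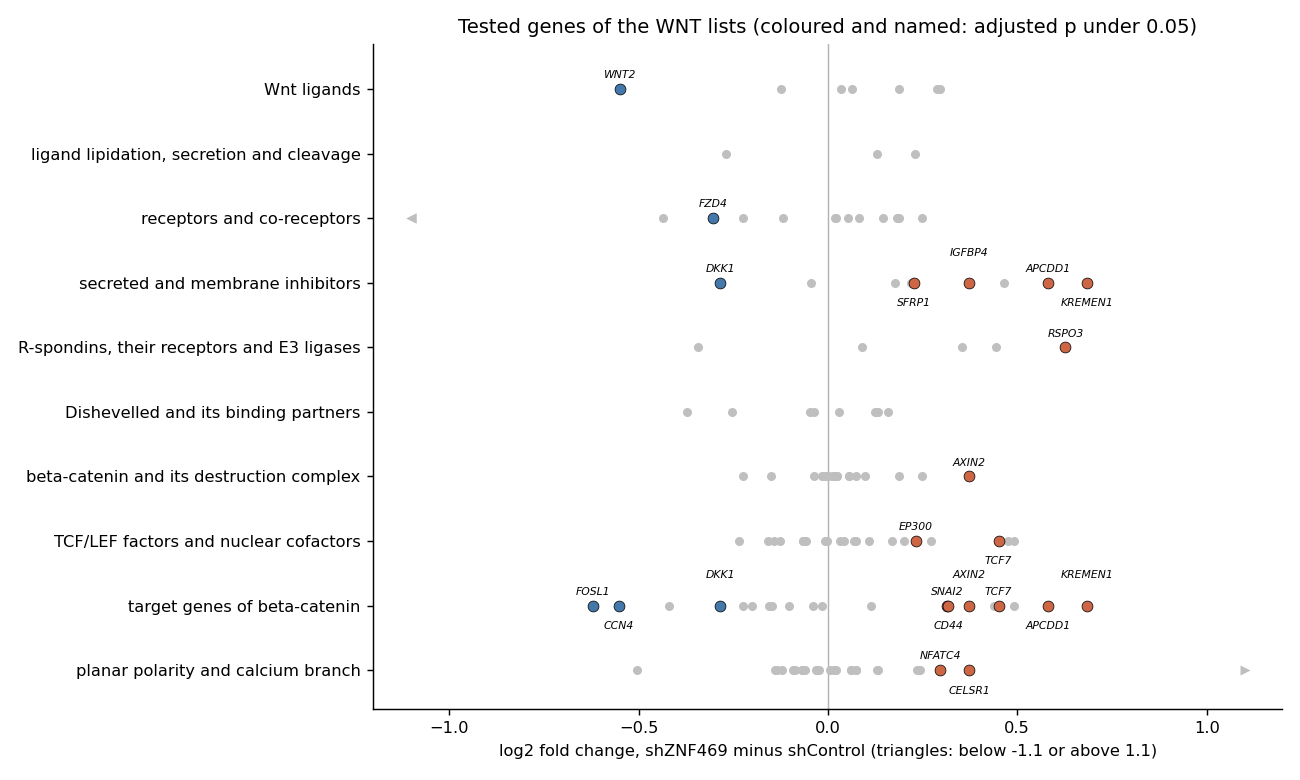
Log2 fold change, shZNF469 minus shControl, of each tested gene in the 10 WNT lists; coloured, named points passed an adjusted p under 0.05 (orange higher, blue lower) and a gene in several lists is drawn in each. The inhibitors hold 4 higher and 1 lower of 9, and the target genes 6 higher and 3 lower of 22. Of all tested genes 9.90% passed.

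Across the 6 libraries, the genes whose log2 CPM followed APCDD1 most closely were IGSF8, an immunoglobulin superfamily gene, C1S, a complement protease gene, and ATP2A3, a calcium pump gene. Pearson's r was 0.999, 0.998 and 0.998 among 9391 genes with a mean of 10 CPM or more, of which 260 had an r above 0.95. These correlations describe 6 libraries in 2 groups and mostly follow the groups. The same genes were 1.44-fold, 1.20-fold and 1.25-fold higher in shZNF469 by edgeR (adjusted p = 0.00585, 0.00924 and 0.0468). As they were picked for following APCDD1 in these libraries, that rise is not a separate result.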

How the data were processed

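Libraries were built from total RNA with a NEBNext Ultra kit, per the labels' protocols. Per the submitters' processing notes, the tools were HISAT2 and StringTie (no versions) and the build GRCh38.p14. The deposited table holds whole-number read counts per gene and, beside them, TPM that the authors computed; no source used here gives the annotation release or the strand setting. Of the 21151 genes, 4195 had no symbol, and 58 symbols were listed more than once, of which the most abundant entry was kept.

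Counts were analysed with edgeR 4.0.16 in R 4.3.3: filterByExpr with a minimum count of 10, TMM scaling, and the two-sided quasi-likelihood F-test of 3 shZNF469 against 3 shControl libraries without covariates, with Benjamini-Hochberg adjustment over 16353 genes, called under 0.05. The SE is the log2 fold change divided by the square root of F. Alternatives were DESeq2 1.42.0, other scalings and filters, a replicate block, limma 3.58.1 on log2(TPM + 1) and log2(TPM + 0.1), and leaving out each library. Within groups, the chi-square between library pairs was 8.70 to 34.8 per degree of freedom, so no pair was within sampling noise. The rule for named genes took ZNF469, the members, each WNT list gene that passed, each list's most abundant tested gene, and the 3 genes most correlated with the member of lowest p; others are cell type markers. The members and lists were chosen with earlier results of these data known. Coordinates and promoters are from RefSeq on GRCh38.p14.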

Additional observations from a re-analysis of the deposited data

How the results depend on the processing

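Over 15 alternative settings, 353 of 435 values of the 29 named genes kept their direction and side of the threshold, 69 lost and 9 gained a call, and 4 changed sign. The sign changes were in genes without a call: with single libraries left out, the log2 fold change ran from -0.023 to 0.10 for WNT5B (below 0 without shZNF469 replicate 1), from -0.042 to 0.11 for TCF7L2 (below 0 without shZNF469 replicate 3), and from -0.067 to 0.020 for CXXC5 and -0.14 to 0.026 for TLE5 (both above 0 without shZNF469 replicate 2). DESeq2 called 1622 genes higher and 1624 lower in all, and 26 and 11 WNT list genes. On log2(TPM + 1), limma called 233 and 526 in all, 1 member higher and 1 lower, and 4 list genes higher and 4 lower. On log2(TPM + 0.1) it called 191 and 462 in all, 1 member higher and 1 lower, and 4 higher and 3 lower list genes. Without 1 library, 204 to 769 genes were higher and 333 to 854 lower, members gave 1 to 3 higher and 0 to 1 lower, and list genes 5 to 12 higher and 2 to 6 lower; those fits have fewer samples. With the replicate number as a block, 592 genes were higher and 736 lower, with 2 members higher and 1 lower: SFRP1 (adjusted p = 0.0543), AXIN2 (adjusted p = 0.0518) and TCF7 (adjusted p = 0.0843) lost their calls and DKK3 passed (adjusted p = 0.0403). Same-numbered libraries deviated from their group means with a Pearson's r of -0.04, 0.06 and 0.08, which gives little sign of pairing by number. Replicates 2 and 3 of each group correlated best with their own number in the other group, and replicate 1 of each with replicate 2. No scaling moved the median of all genes by over 0.1. AXIN2 had the fewest counts of the members, from 465 per library.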
